A study of Mus musculus with 26 samples.

Results

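The potassium channel genes are described here in mouse neurosphere (NSP) cells that differentiated into astrocytes with or without tumor necrosis factor (TNF). Members are all genes whose symbol starts with Kcn, taken from probe sets with a single symbol, which gave 95 probe sets of 92 genes out of 19938 genes measured on the array. Where a gene had several probe sets the one with the brightest average signal stood for it, and only *Kcna2*, *Kcnh8* and *Kcnma1* had more than 1 probe set. By role, 15 members were inward rectifiers, 14 two-pore channels, 25 voltage-gated pore subunits, 10 silent voltage-gated subunits, 8 calcium- or sodium-activated pore subunits and 16 auxiliary subunits. The other 4 were *Kcnrg* and the antisense RNAs *Kcnd3os*, *Kcnmb4os1* and *Kcnmb4os2*.

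All cells came from the ventricular zone of C57BL/6J embryos at embryonic day 14 and were grown as NSPs with epidermal growth factor (EGF). They were then plated on poly-L-ornithine in medium with 10% fetal bovine serum, for which the paper lists no EGF. Untreated cells were sampled at 0, 6, 24, 48 and 72 h after this switch (3 arrays per time). TNF-treated cells received 50 ng/mL TNF and were sampled at 6, 24 and 48 h (3 arrays per time) and 72 h (2 arrays). The serum was shared by both arms, so the TNF effect was always measured in differentiating cells. The untreated course compares plated, serum-treated cells with the cells at 0 h, and in it serum, plating and the change from EGF medium cannot be told apart. RNA was measured on 26 Affymetrix mouse gene arrays, and all levels below are log2 signals of 1 probe set. A difference was called when its q-value was under 0.05 in limma, and fold changes are log2 values with their standard error (SE). The q-value is the estimated share of false calls among the differences called at that cutoff, with all 35556 probe sets of the array tested. Levels of different probe sets cannot be set against each other.

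Potassium channels set the resting potential and bring the membrane back after excitation. In the adult brain, astrocytes hold a very negative resting potential and take up the potassium that active neurons release. They are known to do so mainly through the inward rectifier encoded by *Kcnj10*, alone or paired with the product of *Kcnj16*, together with two-pore leak channels and the sodium pump. Voltage-gated, silent and auxiliary subunits are better known from neurons, where they shape firing, and progenitors also use channels of these families.

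Promoters are printed for 3 members on which the results below turn, *Kcnf1* (TNF effect at 6 h), *Kcnh5* (the highest fold change in untreated cells) and *Kcnj10* (the astrocyte inward rectifier). Each runs from 250 bases before to 50 after the gene start, in RefSeq on GRCm38.p6, at chr12:17176839-17177138 (minus strand), chr12:75177283-75177582 (minus strand) and chr1:172340960-172341259 (plus strand), respectively. Capitals mark GGGNNNNNCC, a short form of the site bound by NF-κB, the transcription factor that TNF activates, searched on both strands.
Kcnf1: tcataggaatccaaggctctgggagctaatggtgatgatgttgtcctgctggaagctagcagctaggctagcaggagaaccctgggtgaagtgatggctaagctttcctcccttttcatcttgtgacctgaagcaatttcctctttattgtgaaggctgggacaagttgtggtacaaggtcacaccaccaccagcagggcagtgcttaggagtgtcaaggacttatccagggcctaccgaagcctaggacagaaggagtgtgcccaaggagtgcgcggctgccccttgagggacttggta
Kcnh5: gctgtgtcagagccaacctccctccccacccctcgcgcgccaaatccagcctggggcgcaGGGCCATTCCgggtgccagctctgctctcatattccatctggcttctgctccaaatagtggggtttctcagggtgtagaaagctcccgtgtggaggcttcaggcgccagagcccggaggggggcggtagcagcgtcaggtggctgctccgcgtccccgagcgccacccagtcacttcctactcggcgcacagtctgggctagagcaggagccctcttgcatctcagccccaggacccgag
Kcnj10: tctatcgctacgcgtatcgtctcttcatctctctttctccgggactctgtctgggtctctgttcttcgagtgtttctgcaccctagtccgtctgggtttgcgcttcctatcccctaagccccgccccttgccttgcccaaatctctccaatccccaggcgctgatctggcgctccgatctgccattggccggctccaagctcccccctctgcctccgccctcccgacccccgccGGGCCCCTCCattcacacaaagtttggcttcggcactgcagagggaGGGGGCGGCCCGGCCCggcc
The *Kcnj10* promoter held 4 matches, 3 of which overlap, the *Kcnh5* promoter 1 and the *Kcnf1* promoter none. Matches of this short motif were common, in 50.8% of all 32851 promoters of the RefSeq table and in 61.1% of the 95 promoters found for 70 Kcn members. TTCNNNGAA, the core bound by STAT factors, which drive astrocyte genes, matched none of the 3 windows, 8.3% of all promoters and 8.42% of those of members. A match is a run of letters and was not tested for binding.

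The arrays numbered 1 stood apart at the first times. The mean log2 signal of 7 mitosis markers was 7.63 in untreated 0 h replicate 1, against 11.78 in replicate 2 and 10.51 in replicate 3. At 6 h the untreated arrays gave 7.29, 11.73 and 10.39 and the TNF-treated arrays 7.24, 11.53 and 10.29. From 24 h on, every array lay between 6.97 and 8.12, so the arrays at 0 and 6 h differed in mitosis markers and the later arrays far less. The signal of long against short genes varied as well. The long-minus-short signal, the mean of the longest 20% of genes minus that of the shortest 20%, was 1.54, 1.68 and 1.72 in the untreated arrays at 0 h and 1.82, 1.82 and 1.83 in those at 72 h. Of the members, 30 of 92 belong to the longest 20%. Counts below are therefore also given without the arrays numbered 1 and with the long-minus-short signal as a covariate, and the part of mitosis or RNA quality in any single result was not tested.

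The astrocyte label was checked by markers. *Gfap*, the astrocyte intermediate filament, rose by 2.49 at 6 h and 4.54 at 72 h, and 13 of 14 astrocyte markers were outside the dimmest 40% of probe sets, with *Gjb6* as the exception. Of the 14, 1, 4, 5 and 5 rose and 3, 3, 2 and 2 fell at 6, 24, 48 and 72 h, with medians of −0.37, 0.02, 0.13 and 0.14. Of all genes, 5.5%, 11%, 11.3% and 14.6% rose and 4.66%, 7.87%, 7.47% and 11.2% fell at these times. The mean of the oligodendrocyte lineage markers was 8.71 to 9.30 at 0 h and 8.22 to 8.58 at 72 h, and 4 of the 9 measured fell at 72 h, among them *Olig2* (log2 fold change −1.49) and *Cspg4* (−2.01). Mural and endothelial markers averaged 7.03 to 7.39 at 0 h and 7.63 to 7.69 at 6 h, and at 6 h only *Acta2*, smooth muscle actin, was called among the 10. Neuron markers averaged 8.04 to 8.36 at 0 h and 7.90 to 8.48 at 72 h. The 8 progenitor markers averaged 11.26 to 11.71 at 0 h and 11.42 to 11.48 at 72 h, inside the range at 0 h. In such bulk RNA, fewer cells of a type and less RNA per cell cannot be told apart, and this holds for every result below.

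Over the untreated course, more members fell than rose, and 38 of 92 were called at 1 or more times. After 6 h, 4 members had risen and 7 had fallen, which is 12% of members beside 10.2% of all genes (5.5% higher, 4.66% lower). After 24 h, 7 had risen and 14 had fallen, 22.8% beside 18.8% (11% higher, 7.87% lower). After 48 h, 8 had risen and 13 had fallen, 22.8% beside 18.8% (11.3% higher, 7.47% lower). After 72 h, 8 had risen and 21 had fallen, 31.5% beside 25.8% (14.6% higher, 11.2% lower). The share called thus lay near that of all genes at each time, while among all genes more rose than fell. The median log2 fold change of members was −0.08, −0.16, −0.10 and −0.18 in the order of time, beside −0.04, −0.08, −0.05 and −0.08 for all genes.

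Of the 38, 11 were called higher only, 25 lower only and 2 in both directions, and 54 members were called at no time. *Kcna4* and *Kcnh5* were higher and *Kcna2*, *Kcnab2* and *Kcnip3* lower at all 4 times. All 4 comparisons share the 3 arrays at 0 h, so calls at several times are not independent. The 48 members outside the dimmest 40% of probe sets had medians of −0.11, −0.24, −0.13 and −0.19 in the order of time, beside −0.02, −0.03, −0.02 and −0.03 for all such genes. The 44 dim members had medians of −0.06, −0.16, −0.09 and −0.17, beside −0.06, −0.13, −0.07 and −0.12, each nearer to the value for all genes of the class than in the members that were not dim. The called members that were dim are *Kcna4*, *Kcnab3*, *Kcne1l*, *Kcnh7*, *Kcnh8*, *Kcnip1*, *Kcnip2*, *Kcnj6*, *Kcnj12* and *Kcnk5*.

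These counts depended on the arrays. Without the arrays numbered 1, 5, 6, 9 and 11 members were called over the 4 times, split 3 to 2, 4 to 2, 5 to 4 and 6 to 5 between higher and lower, and 10 of the 29 calls at 72 h were kept. Without untreated 0 h replicate 2, the array with the highest mitosis markers, 19 were called at 6 h (7 higher, 12 lower), and at the later times 12 of 21, 13 of 21 and 22 of 29 calls were kept. Untreated 24 h replicate 2 and untreated 48 h replicate 2 mattered as well, as 7 members were called at 24 h without the first and 11 at 48 h without the second. With the long-minus-short signal as a covariate, the splits of higher against lower became 6 to 6, 11 to 5, 23 to 12 and 16 to 12 in the order of time, so that the excess of members that fell was seen neither under this setting nor without the arrays numbered 1. At 6 h, cyclic loess gave 4 higher and 12 lower, and a fit that paired same-numbered arrays (the replicate block) gave 6 and 13.

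**Figure D1:**
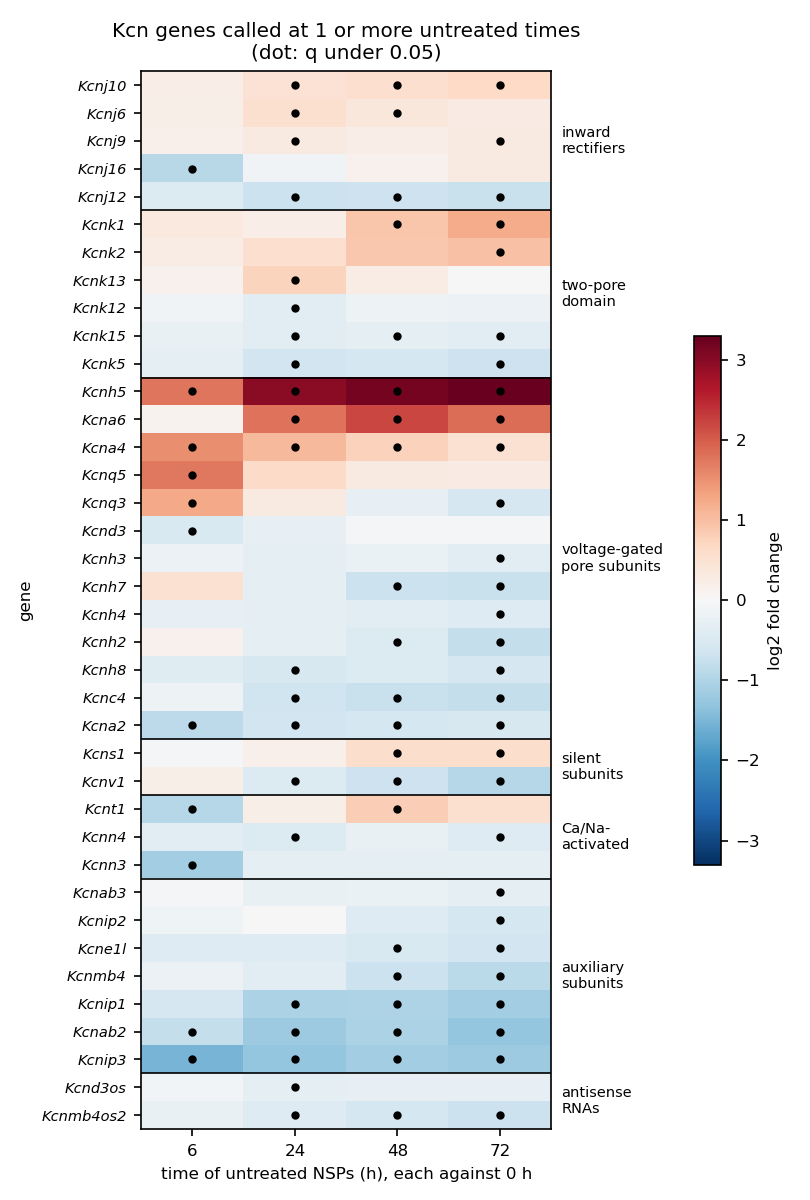
Log2 fold change against 0 h in untreated cells (color) of the 38 members called at 1 or more times, by time in h, with a dot where the difference was called. *Kcnh5* and *Kcna6* reach the highest values, and *Kcna2*, *Kcnab2* and *Kcnip3* carry a dot in the lower direction at all 4 times.

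Among the inward rectifiers, which pass potassium into the cell more easily than out of it, 0, 3, 2 and 2 of 15 rose in the order of time and 1 fell at each time. This count and those of each role below stand beside 5.5%, 11%, 11.3% and 14.6% of all genes that rose. The shares of all genes that fell were 4.66%, 7.87%, 7.47% and 11.2%. At 6 h limma gave 2 of the 15 at an unadjusted p under 0.05. The share of all genes at this cutoff was not computed. *Kcnj10*, the main astrocyte rectifier (chr1:172341210-172374085), measured 11.66, 11.23 and 11.77 at 0 h and 12.14, 12.18 and 12.31 at 72 h. Every array at 72 h lay above every array at 0 h. Its log2 fold change was 0.22, 0.47, 0.56 and 0.66 in the order of time (SE 0.156), called from 24 h on (q = 0.0287, 0.0118 and 0.00248). The call at 72 h held with each single array left out and without the arrays numbered 1 (0.75, q = 0.0386). The calls at 24 and 48 h were lost without untreated 0 h replicate 2 (0.31 and 0.40), whose 11.23 was the lowest of the 3, without the arrays numbered 1, and in 3 and 2 of 6 fits with an array left out in all.

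*Kcnj16*, which encodes the partner of the *Kcnj10* product, followed another course. It measured 10.66, 10.95 and 10.77 at 0 h, 9.66, 10.06 and 9.92 at 6 h, then 11.12, 10.91 and 11.21 at 72 h. All arrays at 6 h lay below all arrays at 0 h, while those at 72 h overlapped them. *Kcnj16* fell at 6 h (log2 fold change −0.92, SE 0.131, q = 9.04e-05), a call kept without the arrays numbered 1, and differed by −0.12, 0.14 and 0.29 at the later times, not called. With the replicate block the 72 h difference was called (q = 0.0321), and also without dim probe sets (q = 0.042).

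The other inward rectifiers changed less. *Kcnj6* and *Kcnj9*, subunits of channels opened by G proteins, rose at 24 h by 0.52 and 0.29. *Kcnj6* was also higher at 48 h (0.38, q = 0.0491), a call lost in 5 of 6 fits with an array left out, and *Kcnj9* at 72 h (0.30). The calls of *Kcnj9* at 24 and 72 h were lost in 3 and 2 of 6 such fits and without the arrays numbered 1. With the replicate block *Kcnj6* was called at 72 h (0.27, q = 0.0202) and *Kcnj9* at 48 h (0.21, q = 0.0448). Both were also called at these times with cyclic loess (q = 0.0057 and 0.0274) and with the long-minus-short covariate (q = 0.00104 and 0.0144). Without the arrays numbered 1 *Kcnj6* was called at 72 h too (0.35). *Kcnj12*, a rectifier best known from muscle and neurons, fell from 24 h on (−0.70, −0.68 and −0.75). Its arrays at 0 h were 7.58, 6.78 and 7.63, and all 3 calls were lost without the arrays numbered 1. *Kcnj8*, a subunit of ATP-sensitive channels in mural cells, was at 7.59, 7.19 and 7.02 at 0 h and 7.16, 6.84 and 7.27 at 72 h, and was not called at any time (log2 fold changes −0.29 to −0.03).

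**Figure D2:**
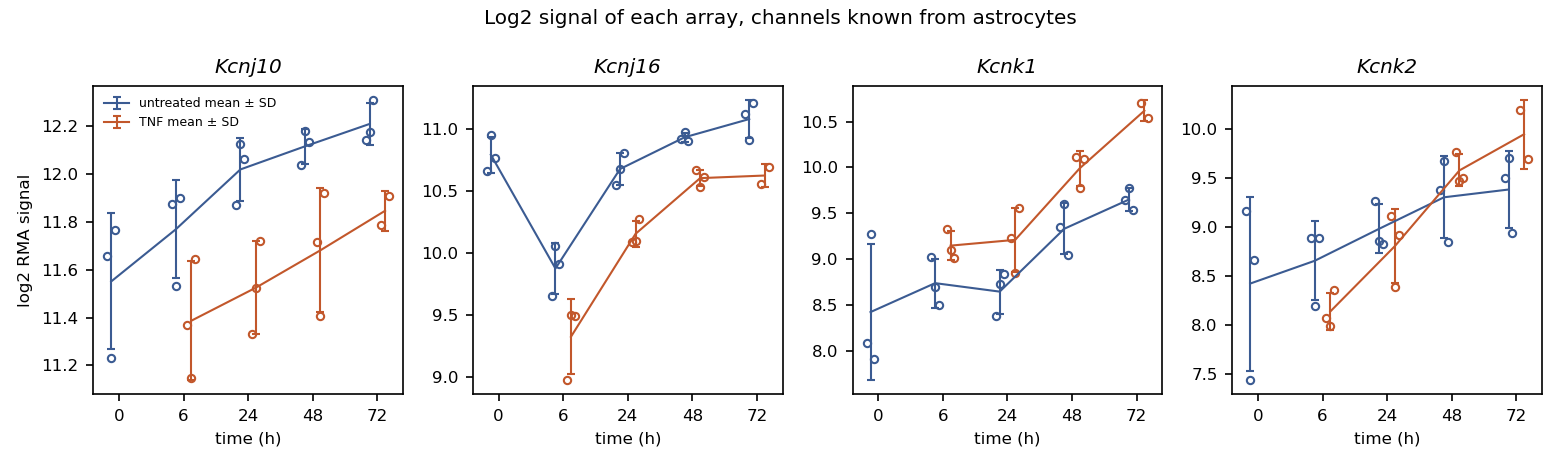
Log2 signal of *Kcnj10*, *Kcnj16*, *Kcnk1* and *Kcnk2* in each array, in untreated and TNF-treated cells, by time in h, with times spaced as categories and a y axis of its own in each panel. Points are arrays, bars the mean ± SD and lines join the means (n = 3, or 2 for TNF at 72 h). *Kcnj10* climbs to 12.14 to 12.31 in untreated cells at 72 h, *Kcnj16* dips at 6 h, and *Kcnk1* is highest in TNF-treated cells at 72 h.

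Two-pore channels carry the background leak of potassium, and *Kcnk1*, *Kcnk2* and *Kcnk10* are the ones usually tied to astrocytes. Of the 14, 0, 1, 1 and 2 rose and 0, 3, 1 and 2 fell in the order of time, and 3 had an unadjusted p under 0.05 in limma at 6 h. For the unadjusted cutoff no share of all genes was computed. *Kcnk1* measured 8.08, 9.27 and 7.91 at 0 h, 9.35, 9.60 and 9.04 at 48 h, then 9.64, 9.78 and 9.53 at 72 h. Untreated 0 h replicate 2 stood above the other 2 and inside the range at 48 h, but below all arrays at 72 h. *Kcnk1* rose by 0.91 at 48 h (SE 0.258, q = 0.014) and by 1.23 at 72 h (q = 0.000945), and without the arrays numbered 1 neither difference was called (0.73 and 1.06, q = 0.189 and 0.0622). The call at 48 h was also lost in 3 of 6 fits with an array left out.

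*Kcnk2*, a leak channel opened by stretch and fatty acids, measured 9.17, 7.44 and 8.67 at 0 h and 9.51, 9.70 and 8.95 at 72 h. The groups overlapped. The call at 72 h (0.96, SE 0.331, q = 0.0244) was lost in 3 of 6 fits with an array left out, and without the low array at 0 h the difference was 0.47. At 48 h its difference was 0.88, not called (q = 0.057), although it was with the replicate block (q = 0.0241), without dim probe sets (q = 0.0292) and with the long-minus-short covariate (q = 0.0157). *Kcnk10*, a close relative, was at 8.21, 7.67 and 8.42 at 0 h and 8.48, 8.91 and 8.75 at 6 h, a difference of 0.61 (q = 0.075) that was called with the block (q = 0.0373) and without dim probe sets (q = 0.0398).

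The remaining two-pore calls were small or rested on few arrays. *Kcnk13*, a leak channel also known from microglia, rose at 24 h by 0.73 (q = 0.0451), where the arrays were 7.72, 8.68 and 7.65, and 3 of 6 fits with an array left out lost the call. *Kcnk15*, whose product gives no current of its own, fell from 24 h on (−0.35, −0.31 and −0.35), and was called at 6 h with the block (−0.26) and with cyclic loess (−0.30). Its calls at 24, 48 and 72 h were lost in 2, 3 and 1 of 6 fits with an array left out. All were lost without the arrays numbered 1 and with the long-minus-short covariate. *Kcnk12*, a silent relative of *Kcnk13*, fell at 24 h (−0.34). That call was lost in 3 of 6 fits with an array left out, without the arrays numbered 1, with the covariate and with Benjamini-Hochberg. *Kcnk5*, an acid-sensitive leak channel, fell at 24 and 72 h (−0.64 and −0.68), but its arrays at 0 h were 6.86, 7.71 and 6.32, and without replicate 2 the differences were −0.27 and −0.31 and not called. At 48 h *Kcnk5* was called with the block only (−0.58).

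Voltage-gated pore subunits held the highest fold changes of the family. Of 25 measured, 4, 3, 3 and 3 rose and 2, 3, 4 and 8 fell in the order of time. At 72 h these counts stand beside 14.6% of all genes that rose and 11.2% that fell. *Kcnh5*, a channel of the ether-à-go-go family that opens at negative voltages, measured 6.86, 7.06 and 6.83 at 0 h. It reached 8.53, 9.01 and 8.54 at 6 h and 9.47, 10.40 and 9.83 at 24 h. The arrays of 48 h gave 9.70, 10.75 and 9.81, and those of 72 h gave 9.83, 10.93 and 9.76. Every later array lay above all arrays at 0 h, and replicate 2 was the highest of its 3 at each time. Its log2 fold change was 1.77, 2.98, 3.17 and 3.26 (SE 0.319; q = 0.000935, 1.12e-06, 4.18e-07 and 1.68e-07), and all 4 calls were kept in every fit with an array left out and without the arrays numbered 1 (1.82 to 3.40).

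The *Kcna* genes encode Shaker-type channels. *Kcna6* stayed at 8.25, 8.02 and 8.07 at 6 h, beside 8.36, 7.43 and 8.22 at 0 h, and was 9.84, 9.92 and 9.64 at 24 h. The arrays from 24 h on lay above all arrays at 0 h, with log2 fold changes of 1.80, 2.19 and 1.84 at 24, 48 and 72 h (SE 0.237). *Kcna4*, which gives a fast inactivating current, was highest at 6 h, with 7.23, 7.77 and 7.56 against 6.05, 5.86 and 6.08 at 0 h, and its fold change was 1.52, 1.08, 0.75 and 0.50 over the 4 times. *Kcna2*, a delayed rectifier, measured 11.21, 11.64 and 11.17 at 0 h and 10.13, 10.54 and 10.72 at 6 h. Its arrays were below all 0 h arrays at every later time, with log2 fold changes of −0.88, −0.63, −0.59 and −0.52. Without the arrays numbered 1, the calls of *Kcna4* and *Kcna6* were kept and none of the 4 calls of *Kcna2*. With single arrays left out, those of *Kcna2* at 24, 48 and 72 h were lost in 2, 2 and 3 of 6 fits and that of *Kcna4* at 72 h in 2 of 6, among them the fit without untreated 0 h replicate 2 (0.43, q = 0.0546). The *Kcna4* call at 72 h was also lost with the long-minus-short covariate and with array weights.

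*Kcnq3* and *Kcnq5* encode subunits of the M channel, a slow brake on excitability. *Kcnq3* measured 8.74, 7.61 and 8.63 at 0 h, 9.40, 9.75 and 9.59 at 6 h, then 7.67, 7.65 and 8.03 at 72 h. It rose at 6 h by 1.25 (SE 0.216, q = 0.000618) and was lower at 72 h (−0.54, q = 0.0456), where the arrays overlapped and the call was lost in 4 of 6 fits with an array left out. *Kcnq5* rose at 6 h by 1.75 (SE 0.386, q = 0.00538), from 7.34, 9.19 and 7.81 to 9.25, 10.66 and 9.68. Replicate 2 was the highest array of *Kcnq5* at both times, and without the arrays numbered 1 the difference was 1.67 and not called. Its later differences were 0.62, 0.30 and 0.26, not called.

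Other voltage-gated members that were called fell. *Kcnh2*, a channel of cardiac repolarization, measured 8.58, 9.29 and 8.69 at 0 h and 7.93, 8.21 and 8.06 at 72 h, and fell at 48 and 72 h (−0.46 and −0.78), with the call at 48 h lost in 3 of 6 fits with an array left out. *Kcnh7*, its neuronal relative, fell at the same times (−0.72 and −0.73), calls lost without the arrays numbered 1. *Kcnc4*, a fast-activating Shaw-type channel, fell from 24 h on (−0.66, −0.73 and −0.79), but untreated 0 h replicate 2 was 9.48 against 8.36 and 8.02, and without it the differences at 24 and 48 h were −0.23 and −0.30 and not called. None of the 3 calls of *Kcnc4* was kept without the arrays numbered 1. *Kcnd3*, an A-type channel, was called lower at 6 h alone (−0.51, q = 0.0268, lost in 3 of 6 fits with an array left out), from 11.32, 11.38 and 11.43 to 11.03, 10.76 and 10.82, and was at 11.32, 11.52 and 11.20 at 72 h. *Kcnh3*, *Kcnh4* and *Kcnh8*, the Elk-type channels, fell at 72 h (−0.36, −0.42 and −0.55), and *Kcnh8* also at 24 h (−0.52). These 4 Elk calls were lost without the arrays numbered 1 and with the long-minus-short signal as a covariate, where *Kcnh3* was at 0.0028, with its sign turned. With the block *Kcnh4* was also called at 6 and 48 h (−0.26 and −0.34) and *Kcnh8* at 6 and 48 h (−0.39 and −0.45). Cyclic loess also called *Kcnh8* at 6 and 48 h (−0.37 and −0.40) and *Kcnh4* at 48 h (−0.30).

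Silent subunits form no channel on their own and modify those of other families. Of 10, 0, 0, 1 and 1 rose and 0, 1, 1 and 1 fell in the order of time. At 6 h limma also gave 0 at an unadjusted p under 0.05. *Kcnv1* measured 8.62, 9.0 and 8.96 at 0 h and 7.87, 7.90 and 8.02 at 72 h, with no overlap, and fell from 24 h on (−0.46, −0.69 and −0.93, SE 0.169). Its call at 24 h was lost in 4 of 6 fits with an array left out and without the arrays numbered 1. *Kcns1* was at 7.47, 7.46 and 7.22 at 0 h and rose by 0.57 at 48 h (8.11, 7.80 and 7.96) and by 0.57 at 72 h (7.91, 7.74 and 8.2). *Kcnf1* was not called in untreated cells (0.37, −0.32, −0.36 and −0.44), although the 72 h difference was called with the replicate block (q = 0.0435).

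Of the 8 calcium- and sodium-activated pore subunits, 0, 0, 1 and 0 rose and 2, 1, 0 and 1 fell in the order of time. *Kcnn3*, a small-conductance channel opened by calcium, measured 10.90, 9.58 and 10.57 at 0 h and 9.77, 8.43 and 9.41 at 6 h, a log2 fold change of −1.15 (SE 0.287, q = 0.0128). Replicate 2 was the lowest array of *Kcnn3* at both times and the groups overlapped, although each array at 6 h lay more than 1 log2 unit below its same-numbered array at 0 h. The call was lost in 2 of 6 fits with an array left out and without the arrays numbered 1 (q = 0.136). *Kcnt1*, opened by sodium, ranged from 7.45 to 9.21 at 0 h. It was called lower at 6 h (−0.94, q = 0.0361) and higher at 48 h (0.80, q = 0.0424), calls lost in 4 of 6 and 3 of 6 fits with an array left out. *Kcnn4*, the intermediate-conductance channel, fell at 24 and 72 h (−0.46 and −0.42). At 6 h it was called lower with the block (−0.39), with cyclic loess (−0.38) and without dim probe sets (−0.39). Its calls at 24 and 72 h were lost in 3 and 4 of 6 fits with an array left out, without the arrays numbered 1 and with the long-minus-short covariate. *Kcnma1*, the large-conductance channel, was at 7.18, 9.13 and 7.33 at 0 h and 7.54, 7.30 and 7.43 at 72 h, and was not called (0.11, −0.69, −0.41 and −0.46). With its probe sets averaged, *Kcnma1* was called lower at 24 h (−0.57, q = 0.0269) and 72 h (−0.47, q = 0.0463). The block also called *Kcnma1* at 24 h (q = 0.037), where same-numbered arrays did not all correlate above 0.1. *Kcnn2*, at 10.35, 8.29 and 10.10 at 0 h, was not called either (−0.23, 0.93, 0.67 and 0.41).

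Auxiliary subunits that were called all fell in untreated cells, 2, 3, 5 and 7 of 16 in the order of time, beside 4.66%, 7.87%, 7.47% and 11.2% of all genes that fell. *Kcnip3* encodes a calcium sensor that binds A-type channels and also DNA. It measured 12.47, 12.89 and 12.73 at 0 h and 10.47, 11.80 and 11.23 at 6 h, with all later arrays below those at 0 h, and fell at each time (−1.53, −1.28, −1.15 and −1.19, SE 0.369). None of its 4 calls was kept without the arrays numbered 1 (q = 0.0599 to 0.215). *Kcnab2*, the β subunit of Shaker-type channels, measured 9.08, 9.63 and 9.53 at 0 h and 8.10, 8.09 and 8.25 at 72 h, and fell at each time (−0.78, −1.19, −1.05 and −1.27, SE 0.161), with all 4 calls kept without the arrays numbered 1.

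*Kcnmb4*, the brain β subunit of the large-conductance channel, measured 9.78, 9.75 and 9.84 at 0 h and 8.98, 8.72 and 9.02 at 72 h, and fell at 48 and 72 h (−0.71 and −0.88, SE 0.155). *Kcnmb4os2*, an antisense RNA that overlaps the start of *Kcnmb4*, fell from 24 h on (−0.43, −0.58 and −0.72). How far the probe sets of such overlapping genes report separate RNAs was not tested. The antisense RNA *Kcnd3os* fell at 24 h (−0.29, q = 0.0468), a call lost in 4 of 6 fits with an array left out. *Kcnip1*, a calcium sensor of A-type channels, was at 6.70, 7.90 and 6.59 at 0 h and fell from 24 h on (−1.03, −1.03 and −1.14). Without untreated 0 h replicate 2 its differences were −0.62, −0.61 and −0.73 and not called. *Kcnip2* (−0.58), a relative of *Kcnip1*, *Kcnab3* (−0.33), a relative of *Kcnab2*, and *Kcne1l* (−0.62), a small subunit of the KCNE family, fell at 72 h, and *Kcne1l* also at 48 h (−0.50). All these calls were lost without the arrays numbered 1 and with the long-minus-short covariate. With an array left out, the 72 h calls of *Kcnip2*, *Kcnab3* and *Kcne1l* were lost in 2, 3 and 1 of 6 fits. The 48 h call of *Kcne1l* was lost in 3 of 6. With the replicate block *Kcne1l* was called at 6 h (−0.42), *Kcnip2* at 48 h (−0.43) and *Kcnd3os* at 48 and 72 h (−0.28 and −0.26). Cyclic loess also called *Kcne1l* at 6 h (−0.40) and *Kcnd3os* at 72 h (−0.27). Without dim probe sets *Kcnd3os* was called at 48 and 72 h as well.

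Genes that work beside the channels were counted in 4 lists, to be read beside the 5.5%, 11%, 11.3% and 14.6% of all genes that rose and the 4.66%, 7.87%, 7.47% and 11.2% that fell. Of 7 measured members of the complex that anchors *Kcnj10* product and water channels at astrocyte endfeet, 2, 5, 6 and 6 rose in the order of time and 0 fell at each time, with medians of 0.30, 0.64, 0.61 and 0.50 beside −0.04, −0.08, −0.05 and −0.08 for all genes. At 72 h *Aqp4*, the water channel, was higher by 2.21, *Utrn* by 1.26, *Dtna* by 1.14 and *Sntb1* by 0.50, the last 3 being parts of the dystrophin complex. Of 12 sodium pump subunits and chloride cotransporters, 1, 4, 5 and 5 rose and 0 fell, with medians of 0.03, 0.16, 0.27 and 0.22. *Fxyd1*, a pump regulator, was higher by 2.71 and *Atp1b1*, a pump β subunit, by 1.96 at 72 h. Of 13 partners of potassium channels, 1, 3, 1 and 2 rose and 1, 1, 1 and 2 fell, with medians of −0.06, −0.15, −0.07 and −0.16. *Lrrc52*, a partner of Slo-type channels, was higher by 1.94 at 6 h, and *Dpp6*, a partner of A-type channels, fell at 72 h (−1.54). Of 9 other channels of the voltage-gated superfamily, which bind cyclic nucleotides, 0 rose at any time and 0, 1, 0 and 2 fell, *Cnga2* at 24 and 72 h (−0.48 and −0.44) and *Cngb3* at 72 h (−0.29). Their medians were −0.12, −0.20, −0.12 and −0.17, and limma gave 2 of them an unadjusted p under 0.05 at 6 h and 2 at 48 h. The share of all genes at the unadjusted cutoff was not computed.

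The question of the second comparison was what TNF does to this course. Few members were called. At 6 h 1 of 92 was called, higher, beside 0.517% of all genes (0.507% higher, 0.01% lower). At 24 h 1 was called, higher, beside 1.26% (0.953% higher, 0.306% lower). At 48 h 1 was higher and 1 lower, beside 1.49% (1.12% higher, 0.376% lower). At 72 h 0 were called, beside 1.53% (0.873% higher, 0.657% lower). At an unadjusted p under 0.05, limma gave 8, 13, 19 and 9 members. For this and every other count at that cutoff, the share of all genes was not computed, so none is read as an excess. At 72 h Benjamini-Hochberg also gave 0, the replicate block 1, only the compared arrays 5 and array weights 16. At 6 h the block gave 2 members, *Kcnf1* and *Kcnj16*. The median log2 difference of members was −0.08, 0.02, −0.14 and −0.03, beside −0.03, 0.02, −0.04 and −0.01 for all genes, and 77.2%, 42.4%, 79.3% and 59.8% of members lay below 0, beside 59.2%, 42.4%, 59.4% and 52.1% of all genes. Without the arrays numbered 1, 0 members were called at each time.

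**Figure D3:**
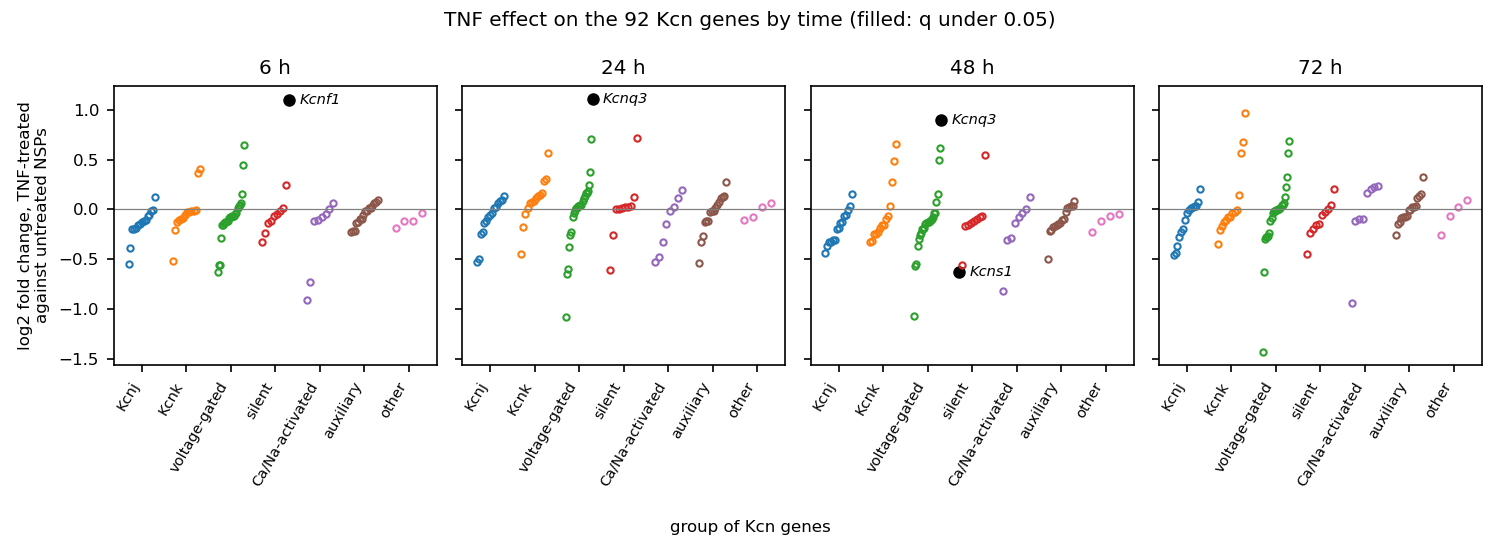
TNF-treated minus untreated log2 signal of all 92 members at 6, 24, 48 and 72 h, by role, with called members marked. Most points lie within 0.5 of 0, the called *Kcnf1* and *Kcnq3* lie near or above 1 and *Kcns1* at −0.63, and *Kcnh5* has the lowest value, −1.43 at 72 h, uncalled.

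*Kcnq3* was the one member called at more than 1 time with TNF. At 24 h it measured 9.47, 9.83 and 9.93 in TNF-treated cells against 8.60, 8.60 and 8.70 in untreated cells, a log2 difference of 1.11 (SE 0.216, q = 0.0101). At 48 h it measured 9.13, 8.73 and 8.98 against 8.02, 7.95 and 8.18, a difference of 0.90 (q = 0.045). All TNF-treated arrays lay above all untreated arrays at each of the 4 times, also at 6 h (0.65, q = 0.556) and 72 h (0.68, q = 0.246), where the difference was not called. With only the compared arrays the 72 h difference was called (q = 0.0451). Array weights called the differences at 6 and 72 h (q = 0.0163 and 0.00201). The 24 h call was lost without untreated 24 h replicate 1, TNF 24 h replicate 2 or TNF 24 h replicate 3, and the 48 h call in 6 of 6 such fits and with Benjamini-Hochberg. The sizes stayed at 1.02 to 1.25 and 0.80 to 1.0 over these fits, and at 1.23 and 0.79 without the arrays numbered 1 (q = 0.186 and 0.536). The TNF-treated arrays of *Kcnq3* at 24 h overlapped the untreated arrays of 6 h (9.40, 9.75 and 9.59).

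*Kcnf1*, a silent subunit, was called at 6 h. It measured 8.96, 8.98 and 8.10 with TNF against 7.87, 7.39 and 7.49 without, a log2 difference of 1.10 (SE 0.235, q = 0.044). The TNF-treated arrays lay above all untreated arrays of *Kcnf1* at each time, and the differences were 0.72, 0.54 and 0.20 at 24, 48 and 72 h, not called. The call was lost in 5 of 6 fits with an array left out, all but that without TNF 6 h replicate 3, with sizes of 0.95 to 1.38. With the replicate block it was kept (q = 0.00507), and with only the compared arrays it was lost. Array weights also called *Kcnf1* at 24 h (q = 0.00979).

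*Kcns1*, another silent subunit, was lower with TNF at 48 h, the time at which it had risen in untreated cells. It measured 7.24, 7.14 and 7.62 with TNF against 8.11, 7.80 and 7.96 without, a log2 difference of −0.63 (SE 0.14, q = 0.026), and none of the TNF-treated arrays reached an untreated one. At 72 h the difference was −0.45 (q = 0.235), again without overlap. The 72 h difference was called with the long-minus-short covariate (q = 0.00859) and with array weights (q = 0.00376). The call at 48 h was lost in 4 of 6 fits with an array left out (−0.77 to −0.53), those without untreated 48 h replicate 1 or 3 or TNF 48 h replicate 1 or 2.

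**Figure D4:**
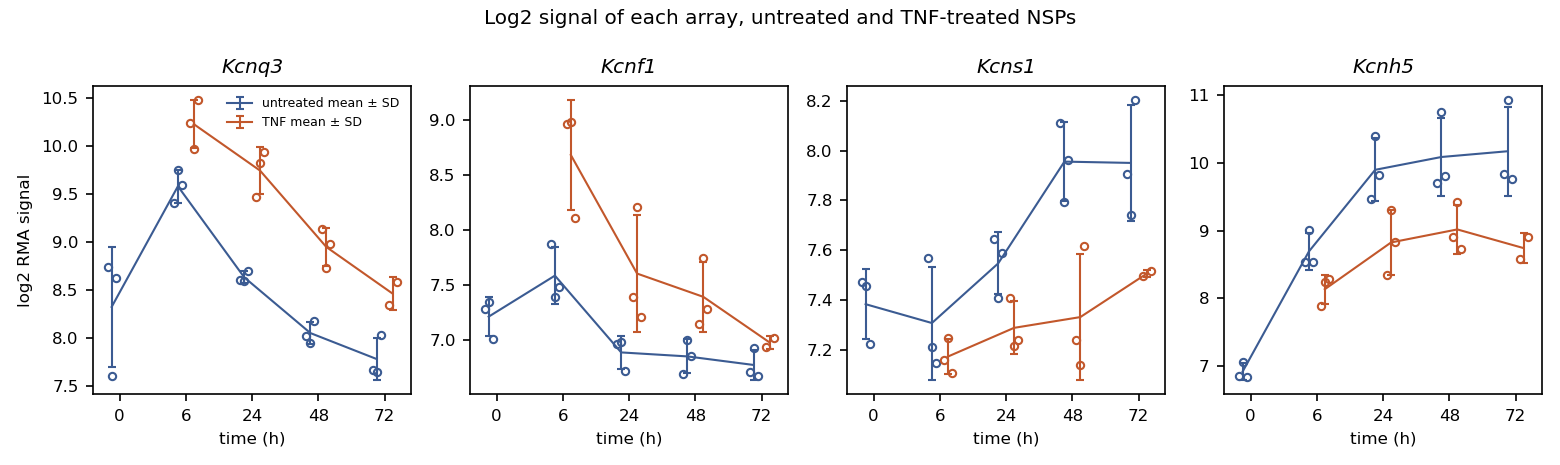
Log2 signal of *Kcnq3*, *Kcnf1*, *Kcns1* and *Kcnh5* in each array, in untreated and TNF-treated cells, by time in h, with times spaced as categories and a y axis of its own in each panel. Points are arrays, bars the mean ± SD and lines join the means (n = 3, or 2 for TNF at 72 h). TNF-treated arrays of *Kcnq3* lie above and those of *Kcnh5* below the untreated arrays of the same time, and *Kcnh5* still climbs with TNF, between 7.89 and 8.28 at 6 h and at 8.58 and 8.90 at 72 h.

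*Kcnh5*, the member with the highest fold change in untreated cells, had lower signals with TNF that did not pass the threshold. At 72 h it measured 8.58 and 8.90 with TNF against 9.83, 10.93 and 9.76 without, a log2 difference of −1.43 (SE 0.357, q = 0.0537). The differences at 6, 24 and 48 h were −0.56, −1.07 and −1.07 (q = 0.894, 0.187 and 0.163), and at all 4 times every TNF-treated array lay below every untreated array. With the replicate block the differences at 24, 48 and 72 h were called (q = 0.00235, 0.00173 and 0.000252). It was also called at 72 h without dim probe sets (q = 0.031), with the long-minus-short covariate (q = 0.033) and with array weights (q = 0.00212), and at 48 h with the covariate (q = 0.0381). The correlation of same-numbered arrays did not pass its limit at these times, so the block is an alternative there. At 72 h it also rests on the number of the second TNF-treated array, and whether that number marks the same culture was not tested.

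The astrocyte rectifiers were also lower with TNF without a call. *Kcnj16* measured 8.98, 9.50 and 9.50 with TNF against 9.66, 10.06 and 9.92 at 6 h, and 10.56 and 10.69 against 11.12, 10.91 and 11.21 at 72 h. Its log2 difference was −0.55, −0.52, −0.33 and −0.45 (SE 0.131 to 48 h; q = 0.0968, 0.0702, 0.487 and 0.175), with no overlap at any time. With the replicate block, which the same-numbered arrays supported at 6 h, it was called at 6 h (q = 0.0262), and at 24 h too (q = 0.02). *Kcnj10* measured 11.79 and 11.91 with TNF against 12.14, 12.18 and 12.31 at 72 h, and its differences were −0.38, −0.49, −0.43 and −0.36 (q = 0.809, 0.259, 0.364 and 0.518), without overlap from 24 h on. Array weights called *Kcnj10* at 24 and 72 h (q = 0.0226 and 0.0185) and *Kcnj16* at 6, 24 and 72 h.

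Other members with low differences under TNF were likewise not called. *Kcna2* differed by −0.63, −0.65, −0.57 and −0.63, and was called at 24 and 72 h with only the compared arrays (q = 0.0485 and 0.0261) and at 6, 24 and 72 h with array weights. *Kcnt1* measured 8.33, 8.44 and 8.50 with TNF against 9.05, 9.42 and 9.27 at 48 h and 8.03 and 8.02 against 9.07, 9.12 and 8.70 at 72 h, without overlap. Its differences of −0.82 and −0.94 (q = 0.306 and 0.205) were called with only the compared arrays (q = 0.0374 and 0.0185) and with array weights (q = 0.0214 and 0.000527). *Kcnv1* measured 7.76, 7.58 and 8.05 with TNF against 8.39, 8.24 and 8.58 at 24 h, also without overlap. Its difference of −0.60 (q = 0.132) was called with the block (q = 0.0489) and with array weights (q = 0.00283). Same-numbered arrays at 24 h did not all correlate above 0.1, so the block is an alternative there.

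Some two-pore channels had higher signals with TNF, again uncalled. *Kcnk1* measured 10.70 and 10.53 with TNF against 9.64, 9.78 and 9.53 at 72 h, a difference of 0.97 (q = 0.13), after 0.41, 0.56 and 0.66 at the earlier times. It was called at 72 h with only the compared arrays (q = 0.0101). *Kcnk10* measured 8.88 and 8.83 against 8.41, 7.65 and 8.48 at 72 h, a difference of 0.68 (q = 0.242). *Kcnk2* was lower with TNF at 6 and 24 h and higher at 48 and 72 h, not called. Its means in the order of time were 8.14, 8.81, 9.58 and 9.95 with TNF against 8.66, 8.98, 9.30 and 9.38 without. Among the voltage-gated members, *Kcnh7* measured 7.13, 7.47 and 7.07 with TNF against 6.51, 6.52 and 6.52 at 24 h, a difference of 0.71 (q = 0.102), and *Kcna1*, a Shaker-type channel, differed by 0.45 at 6 h (q = 0.536). *Kcnn2* (−0.91) and *Kcnn3* (−0.73) had the lowest differences at 6 h, where their untreated arrays ranged from 8.27 to 10.25 and from 8.43 to 9.77. Array weights called *Kcnk1* and *Kcnk10* at 72 h (q = 0.000722 and 0.0195), *Kcnh7* at 24 h (q = 0.00172), and *Kcna1* and *Kcnn2* at 6 h (q = 0.0147 and 0.00594).

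Whether a TNF effect changed with time was tested as the effect at 24, 48 or 72 h minus that at 6 h, comparisons that share the arrays of 6 h. None of the 92 members was called by limma at any of the 3 times (0.0251%, 0.145% and 0.191% of all genes), neither higher (0.0251%, 0.115% and 0.13%) nor lower (0%, 0.0301% and 0.0602%), and 1, 4 and 3 were at an unadjusted p under 0.05. At the unadjusted cutoff the share of all genes was not computed. With array weights 1 was called at 72 h. For *Kcnq3* the effect at 24 h exceeded that at 6 h by 0.46 (SE 0.306), and for *Kcnf1* the effect at 72 h was below that at 6 h (log2 difference −0.89, SE 0.353). The calls of *Kcnf1* at 6 h, *Kcnq3* at 24 and 48 h and *Kcns1* at 48 h are thus not shown to be particular to their times.

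In the other lists with TNF, 0 of 12 sodium pump and cotransporter genes were called at 6 h and 2 of 12 (16.7%) at each later time, beside 0.517%, 1.26%, 1.49% and 1.53% of all genes. *Slc12a7*, a potassium chloride cotransporter, rose by 0.46, 0.98 and 1.39 at 24, 48 and 72 h, and *Fxyd7*, a regulator of the sodium pump, fell at 72 h (−0.95). Of the endfoot anchoring complex, 0 of 7 were called at any time, with 0, 1, 1 and 4 at an unadjusted p under 0.05 in limma. The share of all genes at that cutoff was not computed, so these counts are not read as an excess. Of the channel partners 1 of 13 (7.69%) was called, *Akap5*, a scaffold of kinases, at 24 h (−0.67). Of 14 astrocyte markers, 2 of which also stand in the lists above, 0, 3, 2 and 1 fell in the order of time (0%, 21.4%, 14.3% and 7.14%), among them *Atp1b2*, the astrocyte β subunit of the pump, at 24 and 48 h (−0.44 and −0.51). Their mean was 11.00 to 11.18 with TNF against 11.49 to 11.60 without at 24 h. Of 8 microglia markers, 5 of them dim, only *Cd68* was called, higher by 2.13 at 24 h. The mean of the list at that time, which includes *Cd68*, was 6.92 to 7.10 with TNF and 6.60 to 6.80 without. Whether the share of any cell type changed with TNF, and its part in the TNF differences of the Kcn genes, was not tested.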

How the data were processed

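RNA of NSPs was measured on 26 Affymetrix MoGene arrays. The authors made the deposited log2 signals by RMA, run through oligo in R 3.3.1, which corrects background, brings arrays to 1 distribution and summarizes probes. For oligo and RMA no version is stated in the sources used here. Quantile steps of this kind hide changes that shift most genes together, and log2 signals saturate near background, so that fold changes of dim genes are understated. Of all probe sets, 21789 carry 1 symbol, 1621 several and 12146 none. Correlations between arrays ran from 0.947 to 0.996 and array medians from 7.54 to 7.76.

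limma 3.58.1 in R 4.3.3 fitted 9 group means over all 26 arrays. The contrasts were TNF against no TNF at each time, each untreated time against 0 h, and each later TNF effect against the one at 6 h. q-values came from the smoother method of qvalue, written for this purpose, and the cutoff was 0.05. The series calls its replicates biological, and 3 arrays per group, or 2 for TNF at 72 h, limit the precision. Coordinates are from RefSeq GRCm38.p6. Dim means the lowest 40% of probe sets by mean signal. Array weights were estimated gene by gene, since the default estimate did not converge.

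The members, gene lists, markers and alternatives were chosen with earlier results of these data known. Members named are the astrocyte channels *Kcnj10*, *Kcnj16*, *Kcnk1*, *Kcnk2* and *Kcnk10*, with *Kcnj8*, *Kcnma1* and *Kcnn3*, every member called in a comparison, and the 3 highest and 3 lowest members of every TNF comparison and of the untreated 72 h comparison. Of the genes of other lists, at most 4 called genes a list were named. The long-minus-short covariate and the fit without the arrays numbered 1 were added after the data were seen. A block of replicate number was used beside the result where deviations of same-numbered arrays correlated above 0.1 in all 3 pairs. These were 0.674, 0.559 and 0.461 for TNF at 6 h, and, against 0 h, 0.679, 0.596 and 0.503 (6 h), 0.557, 0.299 and 0.475 (48 h) and 0.14, 0.175 and 0.168 (72 h). Protein and RT-PCR data were not used here.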

Additional observations from a re-analysis of the deposited data

How the results depend on the processing

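Among the 86 called differences of named members, 36 were kept with every single array left out, and 20 under every other setting, a q-value under 0.01 included. The counts of called members, 1, 1, 2 and 0 for TNF in the order of time and 11, 21, 21 and 29 for untreated cells, moved as follows. A q-value under 0.01 gave 0 for TNF at 6, 24 and 48 h and 7, 7, 10 and 15 in untreated cells. Fits of only the compared arrays gave 0, 2 and 5 for TNF at 6, 24 and 72 h and 2, 5, 6 and 9 in untreated cells. Benjamini-Hochberg and cyclic loess each gave 1 for TNF at 48 h. Array weights gave 7, 8, 4 and 16 for TNF, 9 for untreated cells at 24 h, and 1 for the TNF effect at 72 h minus that at 6 h. Without dim probe sets, 2 and 1 were called for TNF at 24 and 72 h. With the long-minus-short signal as a covariate, 5 and 4 were called for TNF at 48 and 72 h and 35 in untreated cells at 48 h, and *Kcnh3* in untreated cells at 72 h turned from −0.36 to 0.0028. Without all arrays numbered 1, 0, 0 and 0 were called for TNF at 6, 24 and 48 h and 5, 6, 9 and 11 in untreated cells, and the drop comes with fewer arrays in the fit. With single arrays left out, counts ran from 0 to 2, 0 to 1, 0 to 1 and 0 to 0 for TNF and from 8 to 19, 7 to 31, 11 to 26 and 20 to 35 in untreated cells, and from 0 to 0 for the comparisons of effects. An intensity trend with a robust prior and averaging the probe sets of a gene moved no count by more than 1.5 times. The replicate block gave 2, 4, 4 and 1 for TNF and 19, 37, 30 and 39 in untreated cells. Same-numbered arrays did not all correlate above 0.1 for TNF at 24 h (0.384, 0.471 and 0.0263), 48 h (0.309, 0.608 and −0.0238) and 72 h (0.0795 and −0.0156) or for untreated cells at 24 h (0.24, 0.312 and −0.0545), so the pairing there is a number only. The second TNF array at 72 h had a mean of mitosis markers of 7.04, beside 8.12 and 7.06 in untreated 72 h replicates 2 and 3. Whether its number marks the same culture was not tested, and the block values at 72 h rest on it. Of the 92 members 44 were dim, and the 4 TNF calls came from members that were not.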
